A study of Rhipicephalus microplus with 8 samples.

Results

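Transcript levels of feeding larvae and feeding nymphs of the cattle tick Rhipicephalus microplus were set against a group coded O. The probes considered were all those with a fold change in both of the authors' deposited tables that concern O, matched by probe name. These were 10695 of the 13459 probes listed for the array. One table gives larvae against O and the other O against nymphs, and the sign of the latter was reversed so that both read stage minus O. Larvae were whole ticks taken 4 days after infestation and nymphs were whole ticks taken 7 days after it, all of the Mozambique strain, of mixed sex and fed on Holstein-Friesian cattle. Each stage had 2 biological replicates with 2 arrays each, giving 8 arrays. Labels do not say how many ticks made up a replicate. Stage RNA was labelled with Cy5 throughout and hybridised against Cy3-labelled RNA of a pool made from life stages and tissues of adult females. Labels do not spell out the code O, and they give no stage, sex, day or number of arrays for it. Adult tissues are named in the labels only as part of the pool, and nothing ties the code to them. Stage and body part therefore cannot be told apart in any difference between whole ticks and O.

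Rhipicephalus microplus completes its parasitic life on 1 host, where the larva moults to a nymph and the nymph to an adult. An immature tick takes up blood, digests it in the gut, secretes saliva into the bite and prepares the cuticle of the next stage, so that the RNA of a whole tick is a mixture of many tissues. In such bulk samples fewer cells of a type and less RNA per cell cannot be told apart. In a reference design, every sample is hybridised together with the same pool, and the difference between 2 log ratios compares 2 samples at the same probe.

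Probe names refer to contigs and sequence tags, and no file pairs them with genes. Of these names 0 occur in the RefSeq gene list for assembly USDA_Rmic, so transcripts are called by their probe names, and no gene position, function or pathway is given. For this reason the markers of a tick stage or tissue could not be looked up, and the labels of the groups were not checked against markers.

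Levels are log2 ratios to the reference pool. The arrays hold this ratio for larvae and nymphs. The level of O was obtained as the mean of the larva arrays that the authors used minus the deposited larvae minus O value, and the nymph arrays gave the same level within 3.3e-08. This could be done for 10675 of the 10695 probes. The same subtraction placed the groups coded G and S, which the deposited tables compare with the same arrays. The levels of O, G and S come without a spread, and no test between O and G or S was made. Spot intensities were not analysed here, so it is not known whether a low level lay above the background of the spot.

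By the authors' calls, most transcripts differed between the immature stages and O, and somewhat more were called higher in the stages than lower. By the authors' deposited tables, 71.5% of the 10695 probes passed an adjusted p of 0.05 between larvae and O. Of these, 4076 were higher in larvae (38.1%) and 3568 lower (33.4%). Between nymphs and O, 73.2% passed in the authors' deposited tables, 4119 higher in nymphs (38.5%) and 3710 lower (34.7%). The median of all differences was 0.14 for larvae minus O and 0.10 for nymphs minus O on the log2 scale. No difference smaller than 0.22 passed in larvae or smaller than 0.24 in nymphs, so centring each table on its median would turn the direction of no called transcript. Calls gained or lost on centring were not computed. Whether this offset accounts for the excess of higher transcripts was not tested. A called difference of at least 2-fold from O was found for 44.3% of the probes in larvae, 24.6% higher and 19.8% lower, in the authors' deposited tables. For nymphs these shares were 44.8%, 24.4% and 20.5% in the authors' deposited tables.

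The deposited tables give no standard error. The deposited fold changes weight all arrays of a stage equally, technical repeats included, and whether the deposited p-values do so too was not tested. The SD between the 2 biological replicates had a median of 0.15 over probes in larvae and 0.23 in nymphs on the log2 scale. The spread of O is unknown, so these SDs cover only the stages' side of each difference from O. Labels call the replicates biological without saying how they were kept apart, so a p-value covers only the variation among these samples, which may be technical.

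Larvae and nymphs lay on the same side of O for 6176 transcripts. By the authors' deposited tables, both stages exceeded O for 3175 transcripts (29.7% of all probes), and both were below it for 3001 (28.1%). Of the 3173 higher ones with a known level of O, 3098 had every larva and every nymph array above O. Of 2994 lower ones, 2909 had every array below O. These transcripts were chosen by differences from O on the same arrays, so counts of arrays on that side largely follow from the choice. Both tables share group O, so a transcript that is low in O is drawn up in both, and no test of the overlap was made.

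The transcripts far below O were largely common to both stages, and those far above O were less so. At a minimum of 8-fold, the authors' deposited tables put 265 transcripts below O in larvae and 243 in nymphs, and 203 were in both lists. That is 76.6% of the larva list and 83.5% of the nymph list. Above O by at least 8-fold there were 437 transcripts in larvae and 414 in nymphs in the authors' deposited tables. Only 186 were in both, or 42.6% and 44.9% of the lists. At a minimum of 32-fold, the shared part was 34 transcripts below O, 68.0% of 50 in larvae and 87.2% of 39 in nymphs. Above O it was 21 transcripts, 20.0% of 105 in larvae and 23.6% of 89 in nymphs. At a minimum of 2-fold, the shared parts were 68.5% of the larva list and 69.1% of the nymph list above O, and 77.9% and 75.1% below O. At 4-fold they were 56.8% and 54.2% above O, and 75.5% and 74.9% below. At 16-fold they were 30.2% and 39.7% above O, and 62.8% and 83.5% below. The common part of the higher lists thus shrank at each step in both stages. In the lower lists the larva share moved down and up, from 77.9% at 2-fold to 68.0% at 32-fold. The nymph share of the lower lists went from 75.1% to 87.2%. Without a minimum fold, the shared part of the higher lists was 77.9% and 77.1%, and that of the lower lists 84.1% and 80.9%. The difference between the directions was not tested, since all of these lists share the same group O.

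Contig6087 and Contig5470 headed the transcripts that were higher in both stages. Contig6087 stood at 3.74, 3.78, 3.00 and 2.81 on the larva arrays and at 4.63, 4.50 and 4.78 on the 3 nymph arrays that the authors used, and the level of O was -3.32. Every array of either stage lay above the pool, and O lay far below it. In the authors' deposited tables, Contig6087 was 101-fold higher in larvae than in O (adjusted p = 2.83e-11) and 249-fold higher in nymphs (adjusted p = 7.65e-12). Contig5470 stood at 2.86, 2.95 and 2.95 in larvae, at 4.12, 4.49 and 3.51 in nymphs and at -3.77 in O. It was 103-fold higher than O in larvae and 225-fold higher in nymphs in the authors' deposited tables. For both transcripts all nymph arrays lay above all larva arrays. The authors' deposited table of larvae against nymphs called this stage difference (adjusted p = 0.018 for Contig6087 and 0.00189 for Contig5470). A limma fit of the biological replicates did not call it (adjusted p = 0.0548 for Contig6087 and 0.0986 for Contig5470). The level of G was -0.44 for Contig6087 and -2.43 for Contig5470, and that of S was -2.15 and -1.32. Every larva and nymph array thus lay above G and S too.

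Contig6410 and Contig337 headed the transcripts that were lower in both stages. Contig6410 stood at -5.38, -5.55, -4.57 and -5.14 on the larva arrays, at -4.40, -5.00, -5.34 and -5.18 on the nymph arrays and at 1.84 in O. The arrays of the stages overlapped each other and lay far below both the pool and O. By the authors' deposited tables, Contig6410 was 128-fold lower in larvae than in O (adjusted p = 5.58e-14) and 113-fold lower in nymphs (adjusted p = 1.09e-13). The stages did not differ past the threshold for Contig6410 in the authors' deposited table, with a log2 difference of -0.18 (adjusted p = 0.538). Contig337 ranged from -5.78 to -4.42 in larvae and from -4.93 to -4.71 in nymphs, against 1.65 in O. It was 114-fold lower than O in larvae and 87.4-fold lower in nymphs in the authors' deposited tables.

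The same transcripts, or transcripts much like them, headed the lower end of each single comparison. Besides Contig6410, the lower end held CK191355 in larvae, 120-fold lower than O in the authors' deposited table, and Contig4713 in nymphs, 119-fold lower in the authors' deposited table. CK191355 was also 64.8-fold lower in nymphs, and Contig4713 was 85.0-fold lower in larvae, in the authors' deposited tables. Among Contig6410, Contig337, CK191355 and Contig4713, O stood between 1.59 and 1.84, G between -4.86 and -4.31 and S between -1.42 and -1.20. S lay between O and the other groups for each of them. The transcripts were chosen by the stages' differences from O, so this place of S is a description.

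The upper end of the single comparisons was set by transcripts whose stages differed widely. Contig571 headed the nymphs, at 4.24, 3.79, 4.53 and 4.11 on the nymph arrays against -2.91, -2.86, -2.56 and -2.41 on the larva arrays and -3.94 in O. It was 275-fold higher in nymphs than in O and 2.38-fold higher in larvae in the authors' deposited tables. The nymph arrays alone lay above the pool. Contig6087, described above, was next in nymphs.

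In larvae, Contig3125 and Contig4363 had the largest values, 494-fold and 415-fold higher than O in the authors' deposited table. Each rests on a single larva array, since the authors had left out the other 3. That array gave 2.38 for Contig3125, against -6.57 in O and between -4.45 and -4.22 in nymphs. It gave 2.56 for Contig4363, against -6.14 in O and between -1.92 and -1.14 in nymphs. The largest larva value with both biological replicates behind it ranked 8 among all, for Contig2619 (chosen after the values were seen), which was 155-fold higher in larvae than in O in the authors' deposited table. Of the 105 transcripts at least 32-fold higher in larvae, 18.1% rested on 1 larva replicate, against 6.15% of all joined probes. For nymphs at least 32-fold above O the share was 1.12%, against 6.19% of all joined probes. Among those at least 32-fold below O it was 0 in both stages, of 50 in larvae and 39 in nymphs.

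Set against the pool, transcripts higher in the stages were low in O, and transcripts lower in the stages were on the other side of the pool in O. Transcripts higher in both stages had a median level of -0.97 in O, 0.49 in larvae and 0.41 in nymphs. Transcripts lower in both stages had a median of 0.75 in O, -0.59 in larvae and -0.58 in nymphs. These classes were chosen by differences from O, so the side on which O lay largely follows from the choice. The levels of O were skewed downwards: 384 probes were at least 8-fold below the pool in O and 0 at least 8-fold above it. In larvae these counts were 163 and 20, and in nymphs 108 and 24. G had 199 and 7, and S had 50 and 0, so the lean was not particular to O. The lowest level of O was -7.46 and the highest 2.59. Where O was at least 8-fold below the pool, the median level was -0.67 in larvae, -0.72 in nymphs, -2.49 in G and -2.01 in S. Of these 384 transcripts, 337 were higher than O in both stages, against 29.7% of all probes. Where O was at least 2-fold above the pool, with 945 transcripts, the medians were -0.80 in larvae, -0.85 in nymphs, -0.39 in G and -0.27 in S, and 861 were lower than O in both stages, against 28.1% of all probes. The 384 and the 945 transcripts were chosen by the level of O, which enters the differences from O, so nothing is read from these counts.

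Groups G and S lay between O and the stages in these sets, by their medians. For the transcripts higher in both stages, the medians of each comparison were 1.43 for larvae minus O, 1.38 for nymphs minus O, 0.84 for G minus O and 0.92 for S minus O. For those lower in both, the medians were -1.28, -1.27, -0.87 and -0.93. All 4 comparisons share group O, on which the sets were chosen, and over all 10695 probes the medians were 0.14, 0.10, 0.18 and 0.12. Among the 203 transcripts at least 8-fold lower in both stages, O had a median level of 1.36 with quartiles of 1.23 and 1.51. Larvae stood at -2.87, nymphs at -2.56, G at -2.16 and S at -0.84. Among the 186 at least 8-fold higher in both stages, the medians were -3.33 in O, 0.89 in larvae, 0.94 in nymphs, -1.63 in G and -1.43 in S. G varied most there, with quartiles of -2.82 and 0.78. All of these sets were chosen by the stages' differences from O, and G and S had no part in the choice. Medians of G and S between both ends can follow from that choice, so nothing is read from their place.

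Transcripts higher than O in both stages differed between the stages somewhat more often than all probes, and those lower in both less often. In the authors' deposited table of larvae against nymphs, 44.2% of all probes passed an adjusted p of 0.05, 22.7% higher in larvae and 21.5% higher in nymphs. It called 50.6% of the transcripts higher in both stages, 825 of them higher in larvae and 783 higher in nymphs. Among those lower in both stages, the same authors' deposited table called 32.2%, 446 higher in larvae and 519 higher in nymphs. At least 2-fold between the stages were 21.5% of the higher ones and 4.50% of the lower ones in the authors' deposited table, against 15.5% of all probes, 7.99% higher in larvae and 7.49% higher in nymphs. The median size of the stage difference was 0.51 on the log2 scale for the higher ones, 0.29 for the lower ones and 0.43 for all probes.

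A fit of the biological replicates gave the same order with fewer calls. With technical repeats averaged first, limma with Benjamini-Hochberg adjustment called 1049 of 9556 probes between larvae and nymphs (11.0%), 513 higher in larvae (5.37%) and 536 higher in nymphs (5.61%). It called 476 of 2940 transcripts higher than O in both stages (16.2%) and 81 of 2841 lower in both (2.85%). These classes were chosen with the same larva and nymph arrays, so the shares are a description. The number of limma calls changed widely when larva replicate 1, larva replicate 2 or nymph replicate 2 was left out. It changed little without nymph replicate 1. Each of these fits left 1 sample in a stage, so their counts are not read.

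Where a stage alone departed from O, nymphs and larvae contributed similar numbers, and departures upwards were more frequent than downwards. A transcript was counted here only if the other stage did not pass against O and the stages also differed from each other in the same sense. By the authors' deposited tables, 544 transcripts met this for larvae higher than O (5.09%) and 285 for larvae lower (2.66%). For nymphs the counts were 570 higher (5.33%) and 410 lower (3.83%) in the authors' deposited tables. A further 974 transcripts passed against O in 1 stage only, without a stage difference past the threshold, of 2783 that passed in 1 stage only. For those 974 a difference between the stages is not shown. The median distance of the other stage from O was 0.10 for larvae higher, -0.04 for larvae lower, 0.13 for nymphs higher and -0.06 for nymphs lower, on the log2 scale. The called stage stood at medians of 1.03, -0.72, 1.10 and -0.82 from O. Limma on biological replicates called the stage difference of 118 of 469, 37 of 278, 152 of 517 and 57 of 355 of these transcripts, in the same order, against 11.0% of all fitted probes. That is 25.2%, 13.3%, 29.4% and 16.1%, so the lower sets lie near the share of all probes. The stage difference is part of how these sets were chosen.

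Contig2248 and TC21791 were the named transcripts higher than O in larvae alone. Contig2248 stood at 3.38, 3.22, 2.82 and 2.86 in larvae, at -3.42, -3.44, -3.74 and -3.68 in nymphs and at -3.62 in O. Its nymph arrays lay on both sides of O, and its larva arrays lay far above. In the authors' deposited tables Contig2248 was 103-fold higher in larvae than in O (adjusted p = 1.85e-15) and 1.03-fold higher in nymphs (adjusted p = 0.827). TC21791 stood at 1.79, 1.89, 2.64 and 2.87 in larvae, at -2.90, -2.36, -2.41 and -3.20 in nymphs and at -3.05 in O. It was 40.8-fold higher in larvae and 1.26-fold higher in nymphs (adjusted p = 0.197) in the authors' deposited tables. Groups G and S were low as well, at -2.73 and -2.84 for Contig2248 and at -1.81 and -1.99 for TC21791. Larvae alone stood above the pool for both transcripts.

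Contig1520 and Contig1859 were lower than O in larvae alone. Contig1520 stood at -3.46, -3.55, -3.33 and -3.41 in larvae, between -1.35 and -0.55 in nymphs and at -1.17 in O. By the authors' deposited tables it was 4.81-fold lower in larvae (adjusted p = 1.26e-09), with nymphs at a log2 difference of 0.35 (adjusted p = 0.0901). Contig1859 stood at -3.10, -2.64 and -2.85 in larvae, between -0.66 and -0.39 in nymphs and at -0.66 in O, and was 4.61-fold lower in larvae in the authors' deposited table. Both had their highest level in S, at 2.06 and 2.22.

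Contig4035 and Contig6780 were higher than O in nymphs alone. Contig4035 stood at 4.84, 4.25 and 4.51 on 3 nymph arrays, at -2.18, -2.36, -1.68 and -1.45 in larvae and at -2.66 in O. In the authors' deposited tables it was 146-fold higher in nymphs (adjusted p = 3.06e-09), and larvae minus O was 0.74 on the log2 scale (adjusted p = 0.209). All larva arrays of Contig4035 lay above O, so the missing call in larvae does not show equal levels. Contig6780 stood at 2.54, 3.63, 3.01 and 2.63 in nymphs, at -2.92, -2.34 and -2.57 in larvae and at -2.80 in O. It was 53.9-fold higher in nymphs and 1.14-fold higher in larvae (adjusted p = 0.777) in the authors' deposited tables. The nymph arrays lay above every other group, while S stood above O, at 0.50 and 0.85.

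CK173153 and Contig7875 were lower than O in nymphs alone, by smaller amounts. CK173153 stood at 0.29, -1.23 and -0.44 in nymphs, at 1.49, 1.12, 1.70 and 2.51 in larvae and at 1.67 in O. By the authors' deposited table it was 4.39-fold lower in nymphs (adjusted p = 1.85e-05). Without nymph replicate 2, its nymphs minus O value went from -2.13 to -1.39 on the log2 scale. Contig7875 stood at -0.45, -1.78, -1.39 and -1.41 in nymphs, at 0.22, -0.02, 1.56 and 1.42 in larvae and at 0.95 in O, and was 4.61-fold lower in nymphs in the authors' deposited table. Larva replicates of Contig7875 disagreed, with both arrays of replicate 1 below O and both of replicate 2 above it. The stage difference of CK173153 was 1.98 ± 0.45 (SE, limma, adjusted p = 0.0449) and that of Contig7875 2.05 ± 0.46 (SE, limma, adjusted p = 0.0430).

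A small group of 169 transcripts placed the stages on opposite sides of O. In the authors' deposited tables, 99 were higher than O in larvae and lower in nymphs (0.926%), and 70 were the reverse (0.655%). For 97 of the 98 with known levels in the first set every larva array lay above every nymph array, and for all 70 of the second every larva array lay below. Limma on biological replicates called 72 of 90 and 51 of 66 of them, against 11.0% of all fitted probes. A stage difference on the same arrays was required for these sets, so these counts are a description. Only 16 of the 169 were at least 2-fold from O in both stages, 12 with larvae above and 4 with nymphs above.

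Contig5256 and Contig3454 had larvae above O and nymphs below it. Contig5256 stood at 3.51, 3.20, 3.07 and 2.70 in larvae, at -2.32, -2.15 and -2.32 in nymphs and at -0.91 in O. It was 16.3-fold higher in larvae (adjusted p = 2.76e-11) and 2.55-fold lower in nymphs (adjusted p = 0.000112) in the authors' deposited tables. Contig3454 ranged from 1.91 to 2.27 in larvae and from -1.48 to -0.87 in nymphs, with O at 0.16. It was 3.83-fold higher in larvae and 2.63-fold lower in nymphs in the authors' deposited tables. The larva, O and nymph values did not overlap in either transcript, which the rule for naming them required.

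Contig3168 and Contig2499 had larvae below O and nymphs above it. Contig3168 stood at -1.60, -1.65 and -1.57 in larvae, at 1.85, 2.76, 1.67 and 1.68 in nymphs and at -0.07 in O. By the authors' deposited tables it was 2.91-fold lower in larvae (adjusted p = 0.00671) and 4.16-fold higher in nymphs (adjusted p = 0.000324). Contig2499 ranged from -3.15 to -2.25 in larvae and from 0.14 to 0.85 in nymphs, with O at -1.09. It was 3.09-fold lower in larvae and 2.74-fold higher in nymphs in the authors' deposited tables. S was the highest of all groups for Contig2499, at 2.26.

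Of the 4 contigs whose names carry a gene word, 2 had deposited values, and 1 of these passed against O. Contig2438_TBP_TATA, named after the TATA-binding protein that helps to start transcription, stood at 0.08, -0.02, 0.36 and 0.03 in larvae, at -0.65, -0.45 and -0.59 in nymphs and at 0.61 in O. All arrays of both stages lay below O, by 1.41-fold in larvae (adjusted p = 0.00158) and 2.25-fold in nymphs (adjusted p = 2.85e-07) in the authors' deposited tables. Contig803_RiboL4, named after a protein of the large ribosomal subunit, stood between -0.40 and -0.17 in larvae, between -0.19 and 0.15 in nymphs and at -0.20 in O. It did not pass in either stage in the authors' deposited tables, with log2 differences of -0.06 (adjusted p = 0.631) and 0.17 (adjusted p = 0.173).

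Separate probes of the same contig often failed to repeat the comparison. Where both probes passed against O, opposite directions were about as frequent as the same direction. For 58 of 76 contigs with probes named A and B, both probes had values. What the letters stand for is not given in the sources used here. The median distance between A and B was 1.29 on the log2 scale for larvae minus O and 1.09 for nymphs minus O. In the authors' deposited tables, both probes passed in the same direction for 15 contigs in larvae and 12 in nymphs. They passed in opposite directions for 13 and 15, and 9 contigs did so in both stages. Probe A of Contig199, chosen after the values were seen as an example, was at 1.08 and 2.14 from O in larvae and nymphs, and probe B at -3.05 and -3.64, in the authors' deposited tables. For this contig the probes differed in direction within each stage. Counts of transcripts are therefore counts of probes.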

How the data were processed

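Log2 ratios of sample over reference pool were deposited by the authors for 8 two-colour arrays. The authors also deposited tables of comparisons with log2 fold changes and p-values, per the file headers; the signed linear fold columns were not used. The submitters' processing notes name limma; for background correction, normalisation and spot filters nothing was found in the labels, headers or notes. Probes were joined to array features where the deposited larvae minus nymphs value equalled, within 1.2e-09, the difference of means over some larva and nymph arrays. This joined 10675 probes, 6516 on all 8 arrays; shifted values gave 21 to 29 chance matches. Arrays not in that mean count as left out. The replicate fit used limma 3.58.1 in R 4.3.3 (lmFit, eBayes) on 9556 probes with both replicates of both stages, and was tested on simulated data. The threshold was an adjusted p of 0.05. Up to 2 identifiers per direction and comparison were named, taken by the largest difference past the threshold; for patterns over both stages, ranked by the smaller of their defining differences, with every used array on the stated side of O. Names with a gene word were added. Members and lists were chosen with earlier results of these data known. The number of arrays limits the precision. No dyes were swapped, so a dye bias that differs between arrays would not cancel.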

Additional observations from a re-analysis of the deposited data

Results flagged for a closer look

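Transcripts whose difference from O was not the same in larvae and nymphs fall into 6 sets. A call in the authors' deposited test of larvae against nymphs was required for membership, so the sets are a description and that call is no result about them. They are larvae alone higher than O (544 transcripts), larvae alone lower (285), nymphs alone higher (570), nymphs alone lower (410), larvae above O with nymphs below it (99) and the reverse (70). The log2 difference of larvae minus nymphs in the authors' deposited table was 6.64 for Contig2248 and 5.02 for TC21791, which were higher in larvae alone. It was -2.62 for Contig1520 and -2.33 for Contig1859, lower in larvae alone. It was -6.45 for Contig4035 and -5.56 for Contig6780, higher in nymphs alone, and 2.16 for CK173153 and 2.05 for Contig7875, lower in nymphs alone, in the authors' deposited table. Across O it was 3.33 for Contig3454, 5.38 for Contig5256, -3.60 for Contig3168 and -3.08 for Contig2499 in the authors' deposited table. Limma on biological replicates also called the stage difference of each of these 12 transcripts, with adjusted p between 0.000825 and 0.0449. They were chosen for large differences on the same arrays, so this is no independent support.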

How the results depend on the processing

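Against O, 7644 probes passed for larvae and 7829 for nymphs, 6176 in both stages on the same side and 1978 in the single-stage and opposite-side sets. At least 2-fold left 4741, 4796, 3445 and 604, and at least 4-fold left 1656, 1710, 1064 and 129. An adjusted p under 0.001 left 957 of the 1978. Probes with all 8 arrays, a smaller set by construction, gave 4989, 5056 and 1185 for larvae, nymphs and the 1978. The other totals stayed within 1.5 times, where computed, under an adjusted p of 0.01 or 0.001. They also did so for probes with both replicates of both stages, a setting added after seeing the data. Asking for every array on the same side of O did so too, though the classes were chosen with the same arrays. Centring kept the deposited p-values and turned no direction, so no total could change. Averaging A and B probes concerned only 58 contigs, so it could move the totals little. Leaving out a stage replicate kept the direction of 7337 to 7340 of 7340 larva calls and 7470 to 7473 of 7483 nymph calls. Only the sign of probes already called was compared, with the level of O kept, and no call was tested again. Under centring or without a replicate, 7 of 136 values of the 23 named transcripts changed sign, all of them differences from O that had not passed the threshold, in 5 transcripts. The 1049 limma calls between stages became 1015 with the replicate block, whose numbers the labels do not tie together (replicate differences of the stages correlated at r = -0.05 over probes). They became 2009 with all arrays and a random block, 356 at an adjusted p under 0.01, 3793 over all features with every array (3002 higher in larvae), and 169 to 2734 without a replicate, where the remaining sample borrows the spread of the opposite stage. The cause was not tested.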

Other observations

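Probes whose names begin with the letters GO stood apart from the other name types in their distance from O. This set was chosen after its values were seen, and no test was made. Of 28 such probes listed, 15 had values. In the authors' deposited tables all 15 were at least 2-fold higher in nymphs than in O, and 14 passed in larvae, 12 of them at least 2-fold. Over all probes, 24.4% were at least 2-fold higher in nymphs, 38.1% passed as higher in larvae and 24.6% were at least 2-fold higher in larvae. The median of larvae minus O was 3.21, with a range of 0.01 to 5.00, and that of nymphs minus O was 2.40, with a range of 1.23 to 3.18, on the log2 scale. Probes named Contig had medians of 0.09 and 0.06, and the other large types, CK and CV, had medians between 0.14 and 0.27. GO248539.1 was at 5.00 in larvae and 3.18 in nymphs relative to O, and GO248558.1 at 4.44 and 3.14, in the authors' deposited tables.

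All 5 groups lay below the reference pool for the GO probes by their medians. The median level was -4.95 in O, -3.68 in G, -2.27 in nymphs, -1.27 in larvae and -1.08 in S. In 11 of the 15, O was at least 8-fold below the pool. Larvae were higher than nymphs for 8 and lower for 2 in the authors' deposited table, and limma on biological replicates called 3 of the 12 that could be fitted. The shares over all probes were 22.7% and 21.5% in the authors' deposited table and 11.0% by limma. The small set named AA also leaned upwards, with medians of 0.91 in larvae and 1.07 in nymphs over 15 probes.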
